A study of Mus musculus with 6 samples.

Results

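The genes described here sense DNA damage or repair it. They are 39 genes chosen by symbol from the 23955 symbols of the deposited table, and all 39 were found there. By their known roles they fall into 7 groups, with 7 genes of damage signalling and the MRN complex, 5 of homologous recombination, 10 of the Fanconi pathway, 5 of end joining, 5 of base excision repair, 5 of nucleotide excision repair and 2 of mismatch repair. RNA came from haematopoietic stem cells (HSCs), sorted from bone marrow as CD150+ CD48- cells among lineage-negative Sca-1+ c-Kit+ (LSK) cells, in db/db mice and in WT littermates. The db/db mice are homozygous for a mutation of the leptin receptor gene and become obese, and all mice were of the C57BL/6 strain and 4 months old. In each of 3 experiments, 20000 HSCs per genotype gave 1 library, so each group has 3 libraries, and replicate 1, 2 and 3 of either genotype belong to experiment 1, 2 and 3. Whether the cells of a library were pooled from several mice is not stated in the labels. The db mutation acts in the whole animal, so a difference cannot be placed in the stem cells themselves or in their surroundings.

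Cells answer a break in DNA with kinases that halt the cell cycle, and mend it along separate routes. A break in both strands can be copied from the sister chromatid by homologous recombination, which is available once the DNA has been replicated, or its ends can be joined directly at any stage of the cycle. The Fanconi pathway unhooks crosslinks between the strands, and excision and mismatch repair replace damaged or mispaired bases in 1 strand. HSCs spend most of their life outside the cell cycle, and inherited loss of Fanconi genes is known to exhaust them and to cause bone marrow failure.

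The values are in TPM, which divides the reads of a gene by its length and sums to the same total in every library. On this scale levels of different genes can be set side by side, but how far transcript length still enters them was not tested. TPM carries no read depth, which is unknown here, and the only error given is the spread between libraries. In bulk RNA, fewer cells of a type and less RNA per cell cannot be told apart. The repair genes together made up between 0.0607% and 0.0994% of the TPM of a library. The libraries differed in composition, with size factors (medians of ratios over the table) of 0.915, 1.13 and 1.23 in db/db replicates 1, 2 and 3, against 0.914, 0.815 and 1.14 in the WT replicates. Genes that mark the sorted cells were present, with the summed TPM of 10 HSC genes such as Kit, Procr and Ly6a between 1896 and 2167 in db/db libraries and between 1310 and 2248 in WT libraries. Cd48, which the gate excludes, ran from 1.63 to 21.4 TPM in db/db libraries and from 1.09 to 5.35 TPM in WT libraries, and Il7r, whose protein the lineage antibodies bind, was listed at 0 in all 6. Flt3, a gene of later progenitors, was at 18.4, 29.6 and 21.3 TPM in db/db libraries, against 8.62, 6.18 and 12.7 TPM in WT libraries. RNA of other cells was uneven. The summed level of 10 lymphoid genes was 263, 248.7 and 165 TPM in db/db libraries, against 134, 160 and 92.3 TPM in WT libraries. Most of that sum was Nkg7 and Cd79b, and 3 of the 10, Cd3e, Ms4a1 and Igll1, were listed at 0 in all 6 libraries. The summed level of 12 genes of granulocytes and monocytes was 4165, 2341 and 1614 TPM in db/db libraries, against 4779, 561 and 480 TPM in WT libraries, so that WT replicate 1 resembled db/db replicate 1 more than it did the rest of its group. The summed level of 10 erythroid genes was 1406, 833 and 321 TPM in db/db libraries, against 177, 204 and 95.8 TPM in WT libraries. The part of these cells in the levels of repair genes was not tested.

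Among the 39 genes, base excision repair supplied the most abundant transcripts. Apex1, the endonuclease that cuts DNA at sites that have lost a base, was listed at 149, 153 and 198 TPM in db/db replicates 1, 2 and 3, against 114, 174 and 180 TPM in the WT replicates. Parp1, the poly(ADP-ribose) polymerase that binds broken strands, was at 66.7, 97.4 and 109 TPM in db/db libraries and at 65.9, 67.0 and 90.4 TPM in WT libraries. Ung, which removes uracil from DNA, was at 56.7, 68.9 and 77.3 TPM in db/db libraries and at 52.4, 95.5 and 51.8 TPM in WT libraries. These 3 genes stood above the rest of the 39 genes in every library except db/db replicate 2, where Xrcc6 at 71.9 TPM passed Ung. The groups of libraries overlapped for each of the 3. Over the 5 genes of base excision repair the median of the WT means was 66.6 TPM, against 10.96 TPM over all 39 genes. Over 17 further base excision genes outside the 39 it was 7.59 TPM, so the high level belongs to the genes chosen and not to the whole route.

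Below them came the Ku proteins, which clasp broken ends for end joining, and Msh6, which recognises mispaired bases. Xrcc6, which encodes Ku70, averaged 52.9 ± 16.5 TPM in db/db and 38.2 ± 3.58 TPM in WT HSCs (SD, n = 3 each). Xrcc5, which encodes Ku80, averaged 34 ± 11.7 TPM in db/db and 27.2 ± 4.24 TPM in WT HSCs, and Msh6 averaged 46.6 ± 18.1 TPM in db/db and 32.7 ± 11.9 TPM in WT HSCs. Xrcc6 was above Xrcc5 in all 3 WT libraries, at 40.4, 34.1 and 40.2 TPM against 25.6, 23.9 and 32.0 TPM. In db/db replicate 3 the order was reversed, with Xrcc5 at 47.4 and Xrcc6 at 44.2 TPM. The intervals of 1 SD of Msh6 overlap those of both Ku genes in either genotype, so its place among these 3 genes is not fixed. At the other end lay recombination and the clamp of the Fanconi pathway, the Fancd2 and Fanci proteins that close around DNA at a stalled fork. The 5 recombination genes had WT means between 1.92 TPM for Rad51c and 5.18 TPM for Brca1, and Fancd2 and Fanci had WT means of 3.01 and 3.69 TPM. Fancb and Fancm, at 1.34 and 1.91 TPM in WT HSCs, were the lowest members of the Fanconi group.

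**Figure D1:**
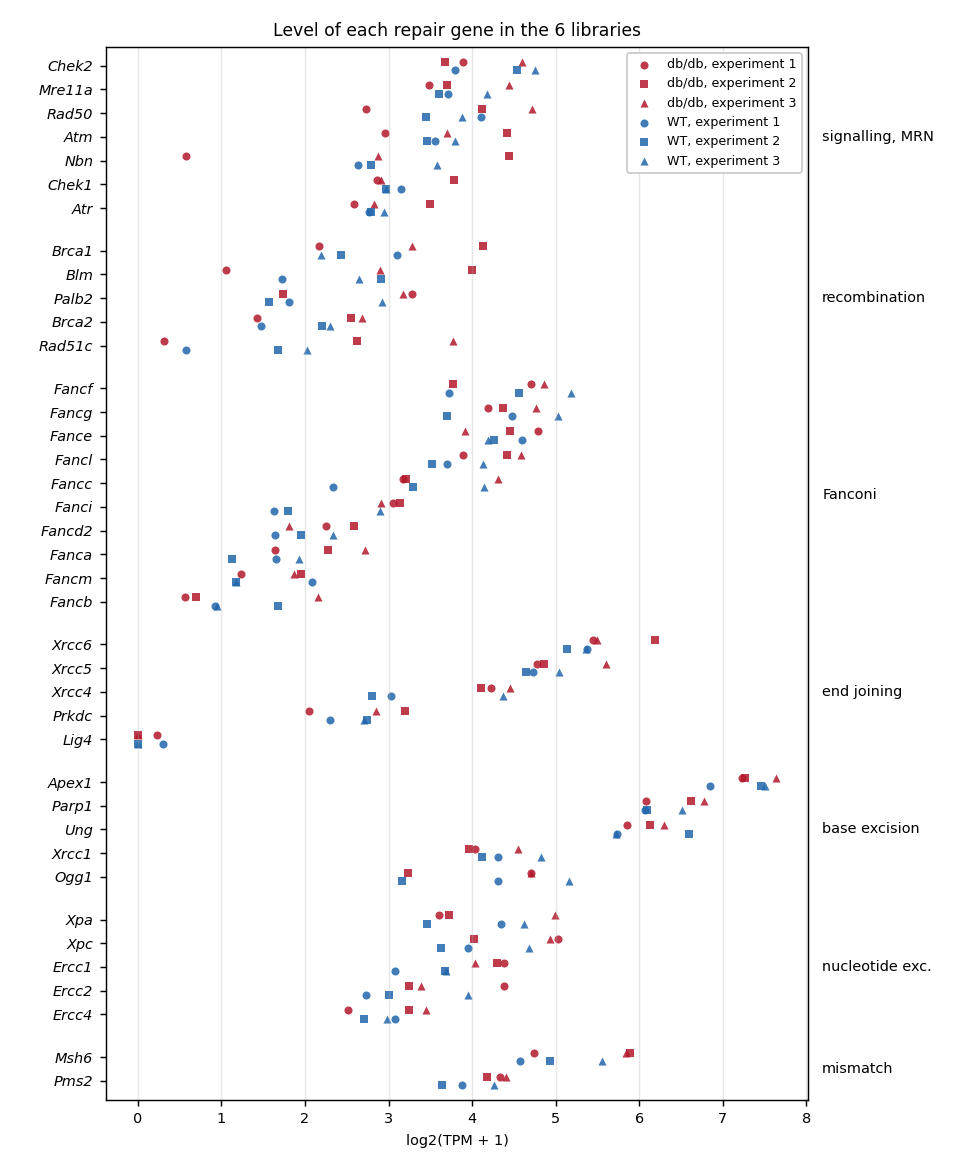
Level of each of the 39 repair genes in the 6 libraries, as log2(TPM + 1) on the horizontal axis, with db/db libraries in red above WT libraries in blue and a marker shape per experiment. Apex1, Parp1 and Ung of base excision repair lie farthest right, recombination genes lie to the left, and Lig4 lies at or near 0 in all 6 libraries.

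Lig4, the ligase that seals the ends in end joining, was the only one of the 39 genes whose mean missed 1 TPM, and it was left out of the tests. It was listed at 0.17, 0 and 0 TPM in db/db replicates 1, 2 and 3, against 0.23, 0 and 0 TPM in the WT replicates. Xrcc4, the protein that binds this ligase, was listed at 17.7, 16.2 and 20.9 TPM in db/db libraries and at 7.20, 5.99 and 19.7 TPM in WT libraries. The transcript of the partner was therefore listed in all 6 libraries, while Lig4 was listed at 0 in 4 of them. A value listed at 0 can be a failed estimate, and the depth that would give its limit is unknown.

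Long transcripts had the lower levels. Across the 39 genes the Spearman correlation between the longest annotated transcript and the mean TPM in WT HSCs was -0.54, against -0.27 across the 10904 tested genes that had a length, as a description over genes of the same libraries. Prkdc, the catalytic subunit of the DNA-dependent protein kinase, has the longest transcript of the 39 at 12647 bases and averaged 5.05 TPM in WT HSCs. Brca2, a mediator of recombination, has 10724 bases and 3.10 TPM, and Apex1, the shortest, has 1239 bases and 156 TPM. Atm, with 9819 bases and 11.2 TPM, and Msh6, with 4251 bases and 32.7 TPM, lay above Brca2 and above Rad51c and Fanca, genes of like length. RNA was amplified before sequencing, and how far transcript length entered the TPM through that step was not tested.

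**Figure D2:**
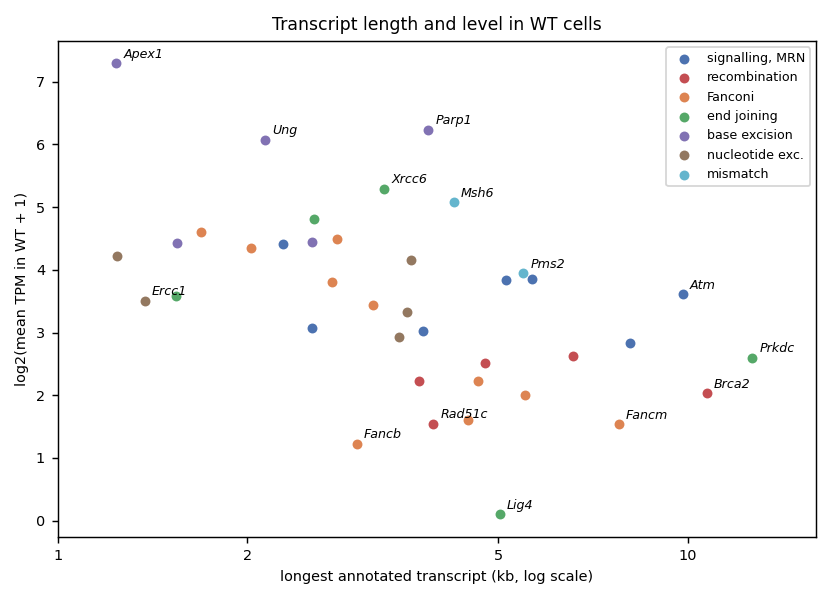
Longest annotated transcript in kilobases on a log axis against log2(mean TPM + 1) in WT HSCs, with 1 point per repair gene coloured by group. Apex1 with 1239 bases lies at the top left and Prkdc with 12647 bases at the right, and the points run downwards from left to right.

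The series asks which transcripts differ in HSCs of obese mice. No repair gene passed the test. In limma on log2(TPM + 1) with Benjamini-Hochberg adjustment over the 11931 genes tested, 0 of 38 members passed as higher in db/db HSCs and 0 as lower, at an adjusted p under 0.05. Over all genes tested, 0.0335% passed as higher and 0% as lower. The smallest adjusted p of a member was 0.919. At an unadjusted p under 0.05 the count was again 0 in either direction, against 4.1% of all genes higher and 1.25% lower. With the experiment as a replicate block, 0 members passed in limma in either direction at an adjusted p under 0.05, against 0.0335% of all genes higher and 0.0168% lower. The unadjusted p with the block was under 0.05 for 1 member with higher values, Xrcc4 (limma adjusted p = 0.689), and for 0 members with lower values, against 5.41% and 1.62% of all genes. All fold changes given are differences of log2(TPM + 1), a scale that makes changes of low genes look smaller than they are.

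A missed threshold does not show that levels were alike. The 95% intervals of the log2 fold changes had a median half-width of 0.91, from 0.55 for Apex1 to 1.46 for Rad51c. For 12 of the 38 genes the whole interval lay between -1 and 1, so that a change of 1 log2 unit or more was outside it. For 25 genes the upper bound was above 1, and for 4 genes the lower bound was below -1.

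Most estimates lay above 0, as did those of the table as a whole. Of the 38 genes, 32 had a fold change above 0, against 68.1% of all genes tested. The median was 0.21, beside 0.18 over all genes tested, and 20 of the 38 lay above that median, as do 50% of all genes. Without WT replicate 1 the medians were 0.18 for the members and 0.16 for all genes, and no member passed in limma. After median-of-ratios scaling, which moves the median of all genes to 0.00, 20 of the 38 were above 0 and 18 below, with a median of 0.05. After quantile normalization the split was likewise 20 and 18. Summed over the 39 genes, the level was 704, 855 and 994 TPM in db/db replicates 1, 2 and 3, against 607, 690 and 877 TPM in the WT replicates. Divided by the size factors the sums were 769, 756 and 809 in db/db libraries and 664, 847 and 771 in WT libraries, so the db/db values then lay within the WT range.

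**Figure D3:**
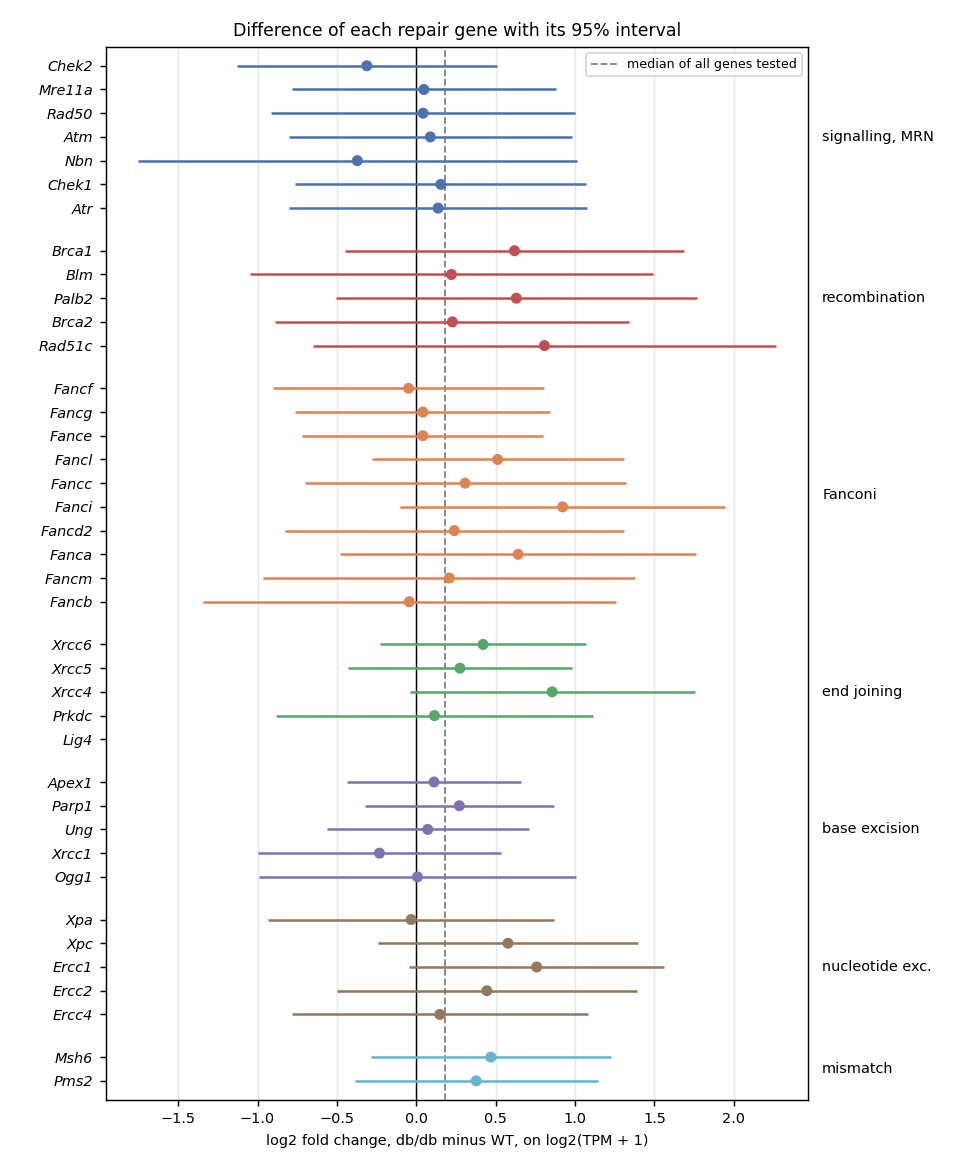
Log2 fold change of 38 repair genes, db/db minus WT on log2(TPM + 1), with 95% intervals from limma, coloured by group, and Lig4 left empty. The grey dashed line is the median of all genes tested at 0.18, and every interval includes 0.

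Groups of libraries did not overlap for 3 members, Fanci, Xrcc6 and Ercc1, all with higher values in db/db HSCs, and for 0 members with lower values. Among all genes tested, 7.85% had groups apart and higher and 2.32% apart and lower. Differences were above 0 in all 3 experiments for 11 members, against 22.7% of all genes, and below 0 in all 3 for 1 member, Xrcc1, against 7.55%. The experiments did not act alike. The median difference of the members was 0.03 in experiment 1, 0.54 in experiment 2 and 0.21 in experiment 3, beside 0.00, 0.45 and 0.09 over all genes tested.

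**Figure D4:**
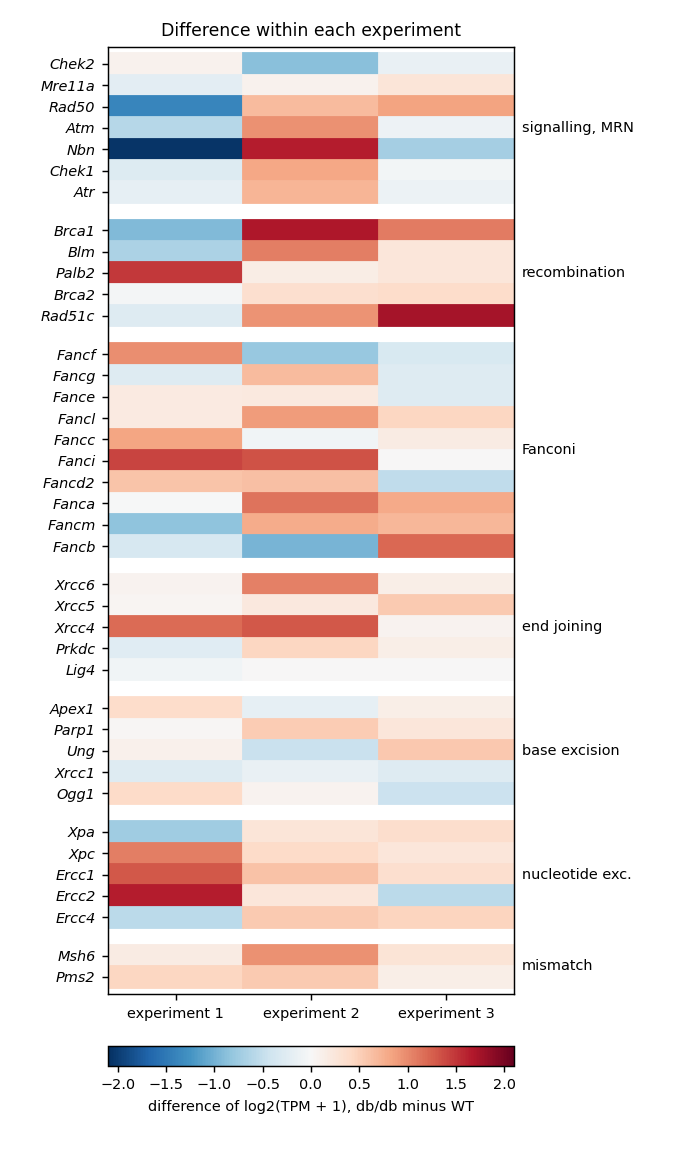
Difference of log2(TPM + 1) between the db/db and the WT library of the same experiment for each repair gene, with red for higher and blue for lower in db/db. Signalling and recombination genes are mostly blue in experiment 1 and mostly red in experiment 2, while Xpc, Ercc1, Msh6 and Pms2 are red in all 3.

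Damage signalling is the first step of the response. Atm and Atr are the kinases that sense breaks and stalled forks, Chek1 and Chek2 carry their signal to the cell cycle, and Rad50, Mre11a and Nbn form the MRN complex, which binds broken ends and activates Atm. The median fold change of the 7 genes was 0.05, or -0.13 relative to all genes, with 5 above 0 and 2 below, and it was -0.13 after median-of-ratios scaling. Without a single library it ran from -0.23, without db/db replicate 3, to 0.33, without db/db replicate 1, and it was below 0 also without db/db replicate 2 or WT replicate 2. Chek2 was listed at 13.9, 11.7 and 23.2 TPM in db/db replicates 1, 2 and 3, against 12.9, 22.3 and 26.1 TPM in the WT replicates. The groups overlapped, and the fold change was -0.31 (SE 0.39, limma adjusted p = 0.926). Atm averaged 13.1 ± 6.91 TPM in db/db and 11.2 ± 1.52 TPM in WT HSCs (SD, n = 3 each), with a fold change of 0.09 (SE 0.43).

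Nbn, the subunit that brings the MRN complex to Atm, was the most uneven repair gene. It was listed at 0.49, 20.8 and 6.33 TPM in db/db replicates 1, 2 and 3, against 5.21, 5.92 and 10.98 TPM in the WT replicates. Both its lowest and its highest value were thus in db/db libraries. The range over the 6 libraries was 3.87 log2 units, wider than in 99.3% of all genes tested. The fold change was -0.37 (SE 0.67, limma adjusted p = 0.940), and it was 0.66 without db/db replicate 1.

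The partners of Nbn had narrower ranges, of 1.99 log2 units for Rad50 and 0.95 for Mre11a. That of Rad50 was still wider than in 85.4% of all genes tested. Rad50, the ATPase of the complex, was at 5.62, 16.4 and 25.4 TPM in db/db libraries and at 16.3, 9.94 and 13.7 TPM in WT libraries. Mre11a, the nuclease, was at 10.2, 12 and 20.7 TPM in db/db libraries and at 12.1, 11.2 and 17.0 TPM in WT libraries. The ratio of Nbn to Mre11a was 0.0479, 1.73 and 0.305 in the db/db libraries, against 0.432, 0.529 and 0.644 in the WT libraries. For 6 of the 7 signalling genes the difference was below 0 in experiment 1, and for 6 of them it was above 0 in experiment 2, against 49.9% of all genes above 0 in experiment 1 and 71.98% in experiment 2.

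The recombination genes had the highest median of the 7 groups, 0.62, or 0.44 relative to all genes, and all 5 lay above the median of all genes. Brca1, which directs breaks towards recombination, was listed at 3.49, 16.5 and 8.72 TPM in db/db replicates 1, 2 and 3, against 7.56, 4.41 and 3.57 TPM in the WT replicates. In experiments 2 and 3 db/db was higher and in experiment 1 WT was higher, so the groups overlapped. The fold change was 0.62 (SE 0.51, limma adjusted p = 0.920). Palb2, the bridge between Brca1 and Brca2, was listed at 8.75, 2.33 and 8.0 TPM in db/db libraries and at 2.5, 1.98 and 6.56 TPM in WT libraries, with a fold change of 0.63 (SE 0.55, adjusted p = 0.920). Palb2 was the 1 recombination gene with a difference above 0 in all 3 experiments, at 1.48, 0.16 and 0.25.

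Rad51c, which acts in strand exchange, was listed at 0.24, 5.14 and 12.6 TPM in db/db libraries and at 0.49, 2.2 and 3.06 TPM in WT libraries. Its level in either genotype was lowest in experiment 1. The fold change of 0.81 (SE 0.70, limma adjusted p = 0.920) was the largest of the group. Blm, a helicase that takes apart recombination intermediates, was at 1.08, 14.9 and 6.44 TPM in db/db libraries and at 2.30, 6.54 and 5.26 TPM in WT libraries. Brca2 was at 1.68, 4.85 and 5.41 TPM in db/db libraries and at 1.77, 3.60 and 3.92 TPM in WT libraries.

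The summed level of the recombination genes was 15.2, 43.8 and 41.2 TPM in the db/db libraries, against 14.6, 18.7 and 22.4 TPM in the WT libraries. In this sum the libraries of experiment 1 were low in both genotypes and alike, and the other 2 db/db libraries were above the other 2 WT libraries. The single genes of experiment 1 were not alike. The difference was 1.48 for Palb2, against -0.93 for Brca1, -0.67 for Blm, -0.26 for Rad51c and -0.05 for Brca2. The median of the group rested on single libraries. It was 0.10 without db/db replicate 3, 0.15 without db/db replicate 2, 1.02 without db/db replicate 1 and 0.38 without WT replicate 1. Recombination genes are known to be expressed mainly in cells that replicate their DNA, and the mean log2 value of 30 genes of cycling cells was 5.14, 5.77 and 5.68 in the db/db libraries, against 5.13, 5.50 and 5.30 in the WT libraries. The part of cycling cells in the recombination values was not tested.

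**Figure D5:**
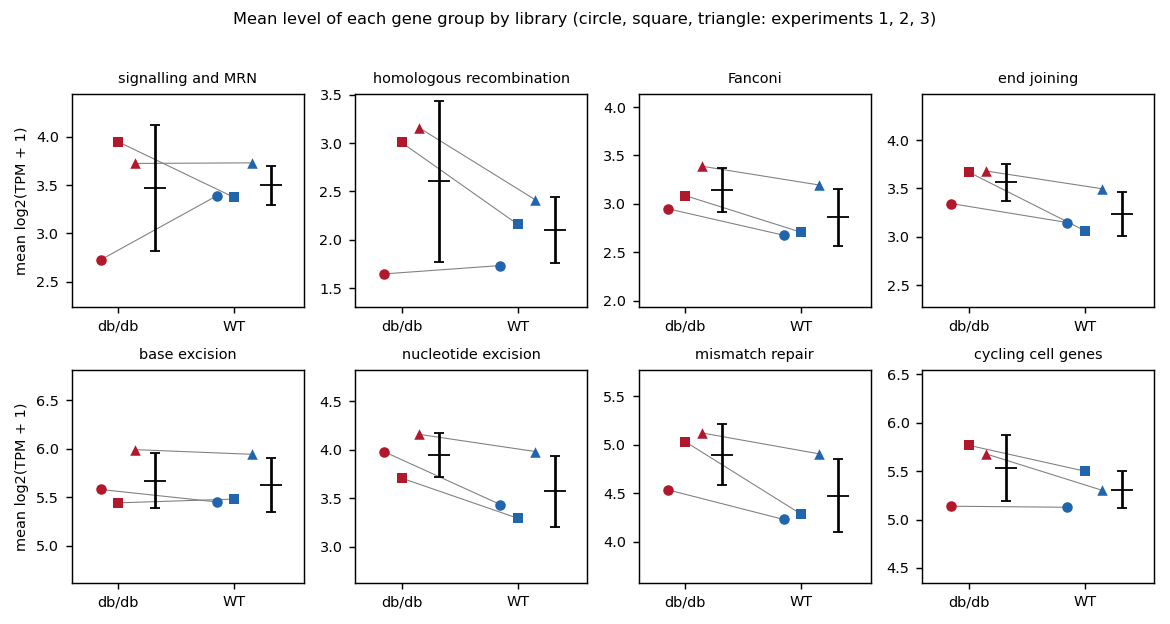
Mean log2(TPM + 1) of the genes of each repair group and of 30 cycling cell genes by library, with db/db in red left of WT in blue, grey lines joining libraries of 1 experiment, and bars for the mean and SD of 3 libraries. Every panel spans 2.2 log2 units, and in the recombination panel the libraries of experiment 1 lie at the bottom in both genotypes.

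In the Fanconi pathway the core complex tags the clamp with ubiquitin. Fancm brings the complex to DNA, Fancl is the ligase that attaches ubiquitin, Fanca, Fancb, Fancc, Fance, Fancf and Fancg are further core subunits, and Fancd2 and Fanci are the clamp. The median fold change of the 10 genes was 0.22, or 0.04 relative to all genes, and 6 lay above the median of all genes. Fanci was listed at 7.31, 7.77 and 6.52 TPM in db/db replicates 1, 2 and 3, against 2.09, 2.49 and 6.48 TPM in the WT replicates. The groups did not overlap, though in experiment 3 the difference was 0.01. The fold change of 0.92 (SE 0.49) was the largest of the 38 members and did not pass (limma adjusted p = 0.919, unadjusted p = 0.0747).

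Fancd2, the partner of Fanci, was listed at 3.75, 5.03 and 2.5 TPM in db/db libraries and at 2.12, 2.87 and 4.05 TPM in WT libraries. The ratio of Fanci to Fancd2 was 1.95, 1.54 and 2.61 in the db/db libraries, against 0.986, 0.868 and 1.6 in the WT libraries, so these ranges overlapped. Fancl was listed at 13.9, 20.3 and 22.9 TPM in db/db libraries and at 11.99, 10.5 and 16.5 TPM in WT libraries, with a difference above 0 in all 3 experiments and a fold change of 0.51 (SE 0.38, limma adjusted p = 0.920). Fancf, the most abundant of the group, was at 25.1, 12.6 and 28.0 TPM in db/db libraries and at 12.2, 22.7 and 35.4 TPM in WT libraries. Its groups overlapped, with a fold change of -0.05 (SE 0.41, limma adjusted p = 0.995). Fancg, Fance, Fancc, Fanca, Fancm and Fancb had fold changes from -0.04 for Fancb to 0.64 for Fanca, and adjusted p from 0.920 to 0.996.

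End joining had a median of 0.35 over its 4 tested genes, or 0.17 relative to all genes. Xrcc6 was listed at 42.5, 71.9 and 44.2 TPM in db/db replicates 1, 2 and 3, against 40.4, 34.1 and 40.2 TPM in the WT replicates. The groups did not overlap, db/db replicate 2 stood high, and the fold change was 0.42 (SE 0.31, limma adjusted p = 0.920). Xrcc4, whose values are given above, had a fold change of 0.86 (SE 0.43) with the smallest unadjusted p of the members, 0.0606 (limma adjusted p = 0.919). Its differences were 1.19, 1.30 and 0.08 in experiments 1, 2 and 3, and the groups overlapped because WT replicate 3 was as high as the db/db libraries. Prkdc was at 3.13, 8.14 and 6.22 TPM in db/db libraries and at 3.93, 5.69 and 5.52 TPM in WT libraries.

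The Ku subunits bind each other in pairs, and their transcripts kept a like ratio in WT libraries. The ratio of Xrcc5 to Xrcc6 was 0.621, 0.391 and 1.07 in the db/db libraries, against 0.633, 0.702 and 0.795 in the WT libraries. The means of 0.695 ± 0.347 and 0.710 ± 0.0815 (SD, n = 3 each) were close, and the spread was wider in db/db. The summed level of the 5 end joining genes was 90.0, 124 and 119 TPM in db/db libraries and 77.3, 69.7 and 97.4 TPM in WT libraries. Divided by the size factors it was 98.3, 110 and 96.7 in db/db libraries, against 84.6, 85.6 and 85.6 in WT libraries, without overlap. The sums before scaling overlapped, and so did the scaled sums of every other repair group. The difference between the scaled sums was not tested. Most of that sum is Xrcc6 and Xrcc5.

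Among the repair groups chosen here, base excision had the highest median level in WT HSCs. The median fold change of its genes was 0.07, or -0.11 relative to all genes. Leaving out db/db replicate 3 gave -0.03, and leaving out WT replicate 1 gave -0.07. After median-of-ratios scaling the median was -0.12 and after quantile normalization -0.09, so its direction depended on the scaling. The intervals of Apex1, Ung and Parp1 were the narrowest of the 38 members, and Apex1 had a fold change of 0.11 (SE 0.26, 95% interval -0.44 to 0.66, limma adjusted p = 0.955). Parp1 had a fold change of 0.27 (SE 0.29, 95% interval -0.33 to 0.87, adjusted p = 0.921). Xrcc1, the scaffold on which single-strand breaks are sealed, was listed at 15.4, 14.6 and 22.4 TPM in db/db replicates 1, 2 and 3, against 18.8, 16.3 and 27.4 TPM in the WT replicates. It was lower in db/db in every experiment, by a steady -0.27, -0.15 and -0.28, while the groups overlapped, and its fold change was -0.23 (SE 0.37, adjusted p = 0.931).

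Ogg1, which removes oxidised guanine, was listed at 25.1, 8.37 and 25.1 TPM in db/db libraries and at 18.8, 7.93 and 34.6 TPM in WT libraries. Both libraries of experiment 2 were low, and the fold change was 0.01 (SE 0.48). Ung averaged 67.6 ± 10.3 TPM in db/db and 66.6 ± 25.04 TPM in WT HSCs (SD, n = 3 each), with a fold change of 0.07 (SE 0.31).

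Nucleotide excision repair cuts out bulky lesions. Xpc finds the distortion, the helicase Ercc2 opens the strands, Xpa checks the lesion, and the Ercc1 and Ercc4 proteins together form the nuclease that cuts on its 5′ side. The group median was 0.44, or 0.26 relative to all genes, and 4 of 5 genes were above 0. Ercc1 was listed at 19.8, 18.7 and 15.4 TPM in db/db replicates 1, 2 and 3, against 7.41, 11.8 and 11.8 TPM in the WT replicates. The groups did not overlap and all 3 differences were above 0, at 1.31, 0.62 and 0.35, yet the fold change of 0.76 (SE 0.39) did not pass (limma adjusted p = 0.919, unadjusted p = 0.0628). Xpc was listed at 31.5, 15.3 and 29.7 TPM in db/db libraries and at 14.4, 11.3 and 24.6 TPM in WT libraries, with differences of 1.07, 0.40 and 0.26 and a fold change of 0.58 (SE 0.39, adjusted p = 0.919).

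The other nuclease subunit, Ercc4, was at 4.72, 8.49 and 9.88 TPM in db/db libraries and at 7.45, 5.52 and 6.88 TPM in WT libraries. The ratio of Ercc1 to Ercc4 was 4.2, 2.2 and 1.56 in the db/db libraries, against 0.995, 2.14 and 1.72 in the WT libraries, so the subunits differed mainly in experiment 1. Ercc2 was at 19.9, 8.50 and 9.51 TPM in db/db libraries and at 5.65, 7.01 and 14.5 TPM in WT libraries. Xpa was at 11.2, 12.3 and 30.9 TPM in db/db libraries and at 19.4, 10.0 and 23.6 TPM in WT libraries, with a fold change of -0.03 (SE 0.43). The group median was 0.66 without db/db replicate 2, 0.81 without WT replicate 3 and 0.23 without WT replicate 1.

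Mismatch repair was represented by Msh6 and by Pms2, an endonuclease that cuts the new strand. Msh6 was listed at 25.7, 58.1 and 56.1 TPM in db/db replicates 1, 2 and 3, against 22.8, 29.5 and 45.9 TPM in the WT replicates. Pms2 was listed at 19.1, 17.1 and 20.2 TPM in db/db libraries and at 13.8, 11.4 and 18.2 TPM in WT libraries. Both genes were higher in db/db in all 3 experiments, while the groups of libraries overlapped. Neither passed in limma, with fold changes of 0.47 (SE 0.36) for Msh6 and 0.38 (SE 0.37) for Pms2 and an adjusted p of 0.920 for each.

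Other repair genes outside these 39 gave the same count. Of 103 further repair genes tested, 0 passed in limma with adjustment over all genes, and at an unadjusted p under 0.05 there were 6 higher and 4 lower, against 4.1% and 1.25% of all genes, with a median fold change of 0.25. Groups of libraries did not overlap for 12 of the 103 with higher and 4 with lower values in db/db, against 7.85% and 2.32% of all genes. By group, the medians of the 103 were 0.38 for signalling, 0.28 for recombination, 0.10 for Fanconi and 0.21 for end joining genes. They were 0.25 for base excision, 0.26 for nucleotide excision, 0.24 for mismatch repair and -0.14 for direct reversal. Among the smallest p values were those of Neil1, a glycosylase for oxidised bases, at 18.1, 6.87 and 14.8 TPM in db/db libraries and at 4.56, 2.88 and 3.40 TPM in WT libraries (fold change 1.55, SE 0.47, limma adjusted p = 0.559). Nhej1, which aligns ends for Xrcc4 and Lig4, was at 7.41, 26.9 and 23.6 TPM in db/db libraries and at 7.23, 2.31 and 6.56 TPM in WT libraries (fold change 1.60, SE 0.50, adjusted p = 0.588). The groups of libraries did not overlap for Neil1 or Nhej1, but neither passed. Of the 30 cycling cell genes, 0 passed and 0 had an unadjusted p under 0.05 in limma, with a median fold change of 0.25, and the smallest p values were those of Mcm4, Pcna and Uhrf1. Mcm4, a subunit of the replicative helicase, was at 33.5, 67.3 and 56.3 TPM in db/db libraries and at 29.4, 38.0 and 30.4 TPM in WT libraries (fold change 0.62, SE 0.33, limma adjusted p = 0.919), and Pcna and Uhrf1 had fold changes of 0.43 (SE 0.23) and 0.51 (SE 0.30).

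The promoters of the repair genes were compared as sequence, a feature the choice of genes did not use. RefSeq windows on the GRCm38.p6 build, from 250 bases before to 50 after the start of a gene, were matched for 34 of the 39 genes. E2F factors switch on genes of DNA synthesis, and 1 of the words TTTCCCGC, TTTGGCGC, TTTCGCGC or TTTGCCGC, which resemble their site, stood on either strand in 6 of the 34 (17.6%), against 4.78% of the windows of 8997 genes tested. The 6 were Chek2, Brca2, Rad51c, Fancg, Xrcc6 and Msh6. The word CCAAT of the factor NF-Y stood in 22 of the 34 (64.7%), against 43.0%, and GGGCGG of Sp1 in 23 (67.6%), against 69.1%. The word TTTGAA of the cell cycle homology region stood in 0 of the 34, against 14.2%. Words were searched on both strands, overlaps were allowed, and a match is a description of letters, not a bound site.

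The windows of the 4 genes with the highest fold changes among the 6 are given 5′ to 3′ on the strand of the gene, with the E2F word or its reverse complement in capitals.

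Brca2, chr5:150522371-150522670, plus strand: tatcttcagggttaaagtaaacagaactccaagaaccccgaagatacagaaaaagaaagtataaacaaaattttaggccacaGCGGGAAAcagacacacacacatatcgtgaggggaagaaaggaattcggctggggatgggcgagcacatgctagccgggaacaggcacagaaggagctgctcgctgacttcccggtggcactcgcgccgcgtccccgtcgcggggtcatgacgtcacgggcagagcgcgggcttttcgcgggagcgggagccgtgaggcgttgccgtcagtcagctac

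Rad51c, chr11:87404457-87404756, minus strand: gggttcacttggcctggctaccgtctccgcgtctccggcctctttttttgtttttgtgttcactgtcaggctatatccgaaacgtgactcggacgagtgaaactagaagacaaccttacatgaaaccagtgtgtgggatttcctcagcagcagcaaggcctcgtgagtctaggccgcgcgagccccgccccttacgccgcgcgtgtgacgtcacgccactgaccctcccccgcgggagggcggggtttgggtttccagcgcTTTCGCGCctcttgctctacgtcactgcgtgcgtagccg

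Xrcc6, chr15:82016119-82016418, plus strand: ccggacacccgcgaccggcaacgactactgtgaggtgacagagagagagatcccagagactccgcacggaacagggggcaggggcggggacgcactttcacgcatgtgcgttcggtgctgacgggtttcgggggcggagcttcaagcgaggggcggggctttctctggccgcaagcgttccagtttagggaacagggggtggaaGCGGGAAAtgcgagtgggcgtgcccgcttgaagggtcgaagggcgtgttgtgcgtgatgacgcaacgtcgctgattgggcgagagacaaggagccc

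Msh6, chr17:87974800-87975099, plus strand: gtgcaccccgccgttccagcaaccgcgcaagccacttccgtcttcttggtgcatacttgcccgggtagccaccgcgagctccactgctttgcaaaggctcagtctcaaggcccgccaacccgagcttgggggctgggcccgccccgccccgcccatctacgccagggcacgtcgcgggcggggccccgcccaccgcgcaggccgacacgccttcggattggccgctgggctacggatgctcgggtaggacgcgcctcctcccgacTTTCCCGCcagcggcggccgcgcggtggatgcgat

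In Brca2 and Xrcc6 the word stands as GCGGGAAA before the start, and in Rad51c and Msh6 as TTTCGCGC and TTTCCCGC shortly after it. A second RefSeq start of Rad51c, at a window of chr11:87404905-87405204 on the same strand, held GCGGGAAA across that start. The fold changes of the 6 genes with a word ran from -0.31 for Chek2 to 0.81 for Rad51c with a median of 0.32, beside a median of 0.21 over 27 members whose window held none, and 0 genes of either kind passed.

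Position was a further feature. Of the 34 genes, 13 had the start of another gene within 1000 bases on the opposite strand, facing away, in the RefSeq starts of GRCm38.p6. Apex1 and Osgep start 56 bases apart, and Osgep was at 36.7 ± 3.25 TPM in db/db and 33.2 ± 10.6 TPM in WT HSCs (SD, n = 3 each). Pms2 starts 162 bases from Aimp2, a scaffold of tRNA synthetases, which was listed at 28.7, 28.8 and 25.4 TPM in db/db libraries and at 43.3, 51.8 and 40.9 TPM in WT libraries. The groups did not overlap for Aimp2, with lower values in db/db and a fold change of -0.69 (SE 0.31, limma adjusted p = 0.919), while Pms2 had a fold change of 0.38. Desi1, whose start lies 149 bases from that of Xrcc6, was at 22.3, 14.0 and 30.6 TPM in db/db libraries and at 30.8, 30.9 and 33.2 TPM in WT libraries, again with a fold change of the other sign, -0.55 (SE 0.35, adjusted p = 0.919). Among the 9 neighbours tested beside a tested member, 5 had a fold change of the same sign as the member, Npat, Nbr1, Dctn5, Tmem167 and Osgep, and 0 of the 9 passed in limma. Aimp2 and Desi1 were picked out after their values were seen.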

How the data were processed

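Gene expression was measured in 6 libraries, 3 of db/db and 3 of WT HSCs. Cells were sorted into a lysis reagent, and total RNA was amplified and made into stranded poly(A) libraries read as pairs of 75 nucleotides, per the labels' protocols. The deposited values are TPM per gene symbol, made by the authors. The submitters' processing notes name RSEM, Bowtie2 and the mm9 build, while versions and annotation are not given in the sources used here. TPM carries no depth, so no counting interval or floor is given. RSEM divides reads that match several genes by an estimate. No member had a row identical to another symbol.

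Log2(TPM + 1) values of genes averaging 1 TPM or more were fitted by genotype alone with limma 3.58.1 (R 4.3.3), with a trended empirical Bayes prior, two-sided tests and Benjamini-Hochberg adjustment over all genes tested. The procedure was tested on simulated data with independent noise for each gene and no shift shared within a library or experiment. That simulation therefore does not bear on the uneven composition of these libraries. P-values rest on the spread between these libraries, which the labels call independent experiments. Through the prior, that spread is shared among genes of like level, with a median of 17.7 prior against 4 residual degrees of freedom. The SE and intervals from limma share it too. Size factors are medians of ratios to the geometric mean over genes above 0 in all libraries. Transcript lengths are from GENCODE M21 (GRCm38) and promoter windows from RefSeq (GRCm38.p6), so they are of a later build than mm9 and serve only as sequence, lengths and neighbours.

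Same-numbered libraries share an experiment by the labels, so they are paired, and the experiment as a replicate block was an alternative. The correlation of their residuals was 0.04, 0.01 and 0.16, against -0.12 to 0.08 for libraries of different experiments. The other alternatives changed the pseudocount to 0.1 or 0.5, dropped the filter or raised it to 5 TPM, scaled by size factors, normalized by quantiles, and tried removal of Rn45s, Gm20594 and Lars2, no trend, a robust prior, array weights, an adjusted p under 0.1, each library left out, and promoter windows ending at the start.

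The members, lists and tests were chosen with earlier results of these data known. By rule, values in all libraries were given in each group for the 2 members of smallest p, the most abundant member and any member whose libraries did not overlap between genotypes. Any member may be named, and up to 3 genes each were taken from the other repair genes and the cycling cell genes, of which 1 is not reported here.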

Additional observations from a re-analysis of the deposited data

How the results depend on the processing

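No member passed an adjusted p under 0.05 in limma in any of the 17 alternatives with a fold change, nor at an adjusted p under 0.1 without other changes. The lowest adjusted p of a member over the alternatives was 0.242 (Xrcc4) and the highest 0.9999. The other repair genes and the cycling cell genes gave 0 calls in each. The count of members higher at an unadjusted p under 0.05 was 2 without the trend (5.26% of members, against 3.83% of all genes), 5 with array weights (13.2% against 11.5%) and 1 with the replicate block (2.63% against 5.41%), which changed no call. With each library left out in turn it ran from 0 to 3, reaching 3 without db/db replicate 1 (7.89% against 7.83%) and without WT replicate 3 (7.89% against 8.11%), and the count of lower members stayed 0. The median of the members ran from 0.09, without db/db replicate 3, to 0.43, without db/db replicate 1, and was 0.37 without WT replicate 3, while that of all genes tested ran from 0.08 to 0.31. With a library left out, group medians ran from -0.23 to 0.33 for signalling, 0.10 to 1.02 for recombination, 0.12 (without WT replicate 1) to 0.39 (without WT replicate 3) for Fanconi genes, 0.27 to 0.50 for end joining, -0.07 to 0.23 for base excision, 0.23 to 0.81 for nucleotide excision and 0.30 to 0.64 for mismatch repair. The median of base excision was -0.12 after median-of-ratios scaling and -0.093 after quantile normalization. Median-of-ratios scaling also gave 0.08 for Fanconi genes, 0.16 for end joining, 0.24 for mismatch repair, 0.28 for nucleotide excision, 0.44 for recombination and -0.13 for signalling. It changed the shares of all genes with an unadjusted p under 0.05 to 2.48% higher and 2.98% lower. The share of promoters with an E2F word was 11.8% in windows ending at the start, against 3.99% of genes tested.

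Fold changes kept 1 sign in every alternative for 19 of the 38 members. After median-of-ratios scaling they turned to -0.094 for Atm, -0.034 for Atr, -0.020 for Chek1, -0.15 for Rad50, -0.13 for Mre11a, -0.14 for Fance, -0.14 for Fancg, -0.058 for Prkdc, -0.17 for Ogg1, -0.083 for Apex1, -0.12 for Ung and -0.028 for Ercc4. After quantile normalization the same genes gave -0.11, -0.045, -0.038, -0.15, -0.16, -0.17, -0.16, -0.072, -0.20, -0.029, -0.093 and -0.043. Ogg1 was -0.019 without Rn45s, Gm20594 and Lars2. With array weights, Nbn was 0.19, Fancb 0.19, Fance -0.16, Fancf 0.28, Ogg1 -0.068 and Xpa 0.015. Both scalings lower the median of all genes by construction, and for the other changes the cause was not tested.

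With a library left out, fold changes that changed sign ran from -1.28 to 0.66 for Nbn, -0.55 to 0.24 for Fancb, -0.16 to 0.28 for Fance, -0.52 to 0.50 for Ogg1, -0.48 to 0.22 for Xpa, -0.28 to 0.46 for Atm, -0.13 to 0.33 for Atr, -0.14 to 0.32 for Chek1, -0.39 to 0.61 for Rad50, -0.45 to 1.02 for Blm, -0.43 to 0.30 for Fancf, -0.13 to 0.44 for Prkdc, -0.23 to 0.24 for Mre11a, -0.033 to 0.62 for Brca2, -0.15 to 0.75 for Fancc, -0.31 to 0.36 for Fancg, -0.10 to 0.23 for Apex1, -0.076 to 0.36 for Ung and -0.039 to 0.42 for Ercc4. Depth is unknown, and low members such as Fancb, Fancm and Rad51c are the least certain.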

Other observations

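Libraries differed in how many members were at their highest or lowest there. Of the 38 tested members, 15 were highest in db/db replicate 3 and 11 in db/db replicate 2, against 30.7% and 25.9% of all genes tested, and 13 were lowest in db/db replicate 1 against 21.7%. In WT replicate 2, 12 members were lowest, against 34.1% of all genes. The median range over the 6 libraries was 1.31 log2 units for members and 1.23 for all genes tested. Nbn, Rad51c and Blm had the widest ranges, and each was lowest in db/db replicate 1. Parp1 had the narrowest at 0.71, and Pms2, Apex1 and Xrcc1 followed.

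Further repair genes that were lower in db/db at an unadjusted p under 0.05 included the demethylase Alkbh2 at 3.88 ± 2.98 TPM in db/db and 11.4 ± 5.80 TPM in WT HSCs, Shfm1, a partner of Brca2, at 107 ± 19.99 TPM in db/db and 167 ± 31.2 TPM in WT HSCs, and Apitd1, a partner of Fancm, at 11.9 ± 2.81 TPM in db/db and 21.7 ± 2.04 TPM in WT HSCs (SD, n = 3 each). None of these passed in limma (adjusted p from 0.769 to 0.910), and they were named after their values were seen. Ube2t, the enzyme that hands ubiquitin to Fancl, was at 21.8, 29.5 and 39.6 TPM in db/db libraries and at 15.5, 8.32 and 17.4 TPM in WT libraries, without overlap (fold change 1.10, SE 0.38, limma adjusted p = 0.749).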
